A study of Mus musculus with 20 samples.

Results

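Transcript levels of 40 genes that build ribosomes were followed in 20 mouse livers after a guide RNA against Hira or a control guide had been delivered to hepatocytes. In control livers, most of these genes were lower at 6 months than at 3 weeks after injection, and 5 of them passed the test (Ppan, Nop56, Nolc1, Nop2 and Nol10). No member passed it between the same times in livers with the Hira guide, and at 6 months Ppan and Noc4l were higher in those livers than in controls. The difference between the 2 time courses was not past the threshold for any of the 40. The 40 were found by their gene names in a table of 55421 genes, and all were present. The list was chosen by name with the fold changes of earlier analyses of these data in view, and its rule states no comparison or cut-off that the genes were selected on. Counts and medians over the list are therefore descriptions, without a test.

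Ribosomes are assembled from ribosomal RNA and proteins in the nucleolus. RNA polymerase I transcribes the long precursor of the 18S, 5.8S and 28S rRNAs, small nucleolar ribonucleoproteins (snoRNPs) guide its chemical modification, and assembly factors fold and cut it into the small (40S) and large (60S) subunits. The genes for these factors are transcribed by RNA polymerase II, are often expressed together, and are known targets of MYC and of growth signalling through mTOR. Liver makes large amounts of secreted protein, and its ribosome production is known to respond to feeding and to regeneration.

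The mice were wildtype C57BL/6 animals injected at 6 months of age with an AAV8 vector. It carried SaCas9 (the Cas9 of Staphylococcus aureus) under the Tbg promoter, which is active in hepatocytes, and a guide under the U6 promoter. The guide was sgRNA-Rosa26, aimed at a locus used as a neutral target, or sgRNA-HIRA, aimed at the gene of a chaperone that deposits histone H3.3. Both arms therefore share the vector and the nuclease. Livers were taken 3 weeks or 6 months after injection, with 5 mice in each of the 4 groups, called Rosa26 and HIRA livers here, and whole-liver RNA was sequenced, so cells that the Tbg promoter does not reach were also measured. Fewer cells of a type and less RNA per cell cannot be told apart in such samples. Age and time since injection also cannot be told apart.

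Total counts per library ranged from 19916430 to 24079736. The mRNA of Hira was at 6.04 to 8.54 counts per 1000000 counts (CPM) in Rosa26 and 4.15 to 5.95 in HIRA livers at 3 weeks, lower in all 5 HIRA libraries than in any Rosa26 library (log2 fold change -0.48, edgeR unadjusted p 0.00219, adjusted over all genes 0.197). At 6 months it was at 4.82 to 7.32 and 4.96 to 6.51 CPM, which overlapped (-0.10, edgeR unadjusted p 0.475, adjusted 0.794). All mice are female by label, while the paper calls the animals of these 2 times male in its main text and female in a legend. Xist was at only 9 counts in replicate 5 of the HIRA livers at 6 months, against 6286 to 8436 in the other 19 libraries, and 4 genes of the Y chromosome summed to 2041 there, against 0 to 13. The library was kept. The counts of members called, the medians over all 40, the members past the threshold at 6 months and the list medians printed for that comparison are also given without it, as is Hira, whose log2 fold change at 6 months was then -0.16 (edgeR adjusted p 0.614).

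The members were all detected well. Each had a mean of at least 1 CPM, so none depended on the filter for low counts. Per kilobase of exon, Npm1, which encodes the major granular protein of the nucleolus, had the highest mean level, with 53.3 ± 5.26 CPM per kb (SD, n = 5) in Rosa26 livers and 53.8 ± 4.23 in HIRA livers at 3 weeks, and with 48.1 ± 3.80 and 49.4 ± 4.71 at 6 months. These 4 values overlapped within their SDs. Ncl (nucleolin, a nucleolar RNA-binding protein) followed over all libraries with 14.3 CPM per kb and Nhp2 (a core protein of box H/ACA snoRNPs) with 12.4. At the low end were Utp20, a late-joining protein of the small subunit processome, with 1.17, Nop58 with 1.13 and Wdr12 with 1.05 CPM per kb. The length is that of all annotated exons together, and in the FPKM values of the authors Fbl took the third place and Nop58 the 11th. The widest spread between libraries of 1 group was that of Gar1 (pooled SD 0.29 on the log2 CPM scale), Heatr1 (0.25) and Rrp12 (0.25).

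**Figure D1:**
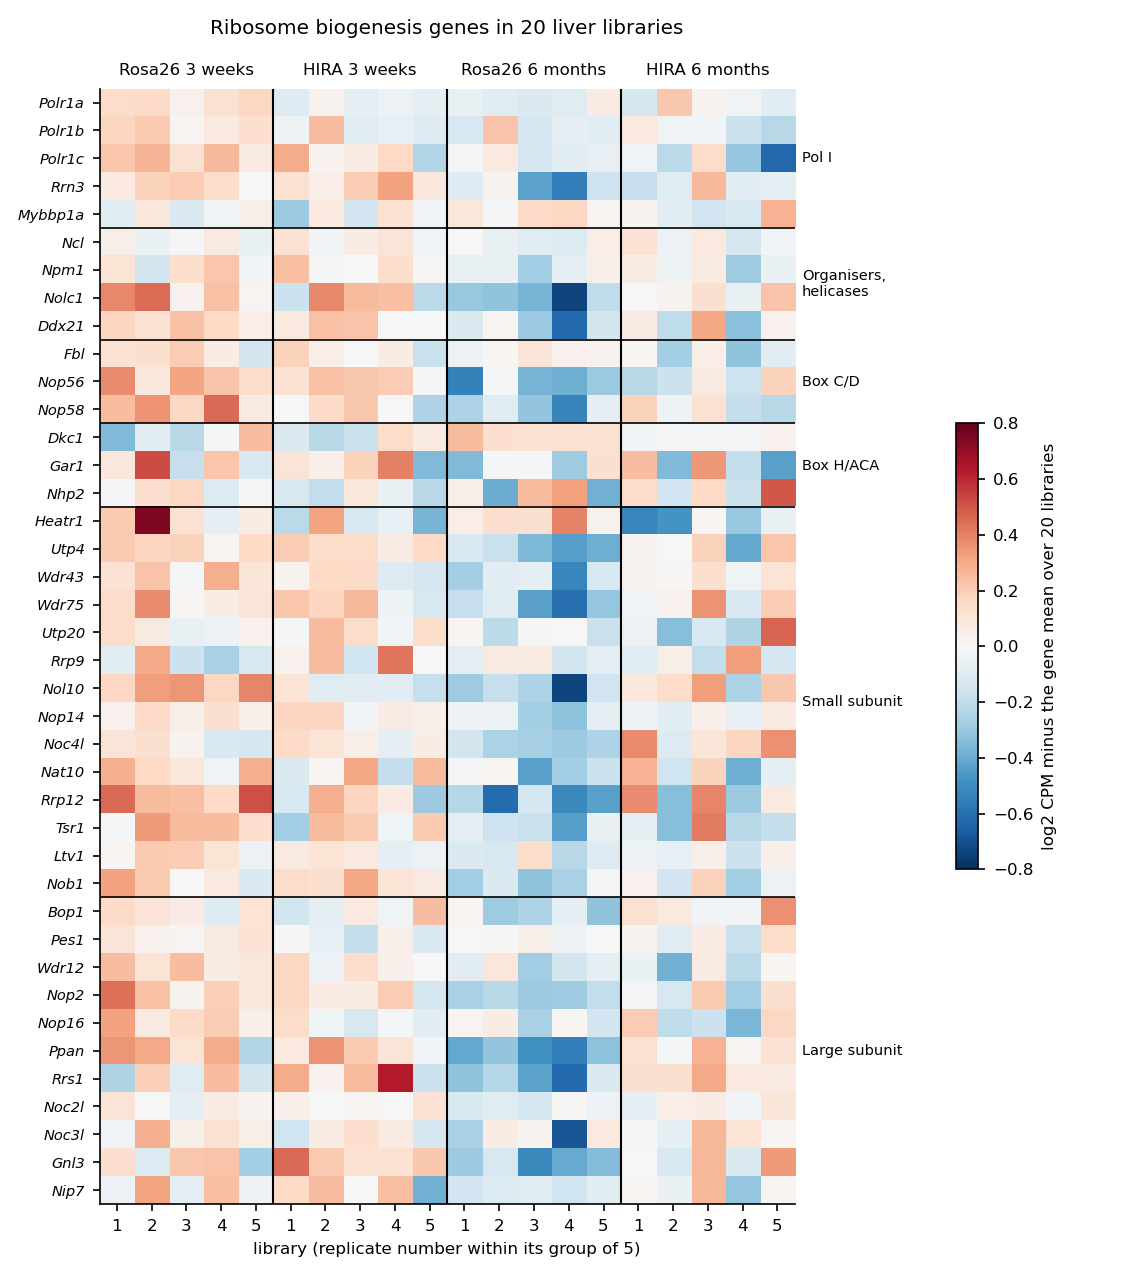
Level of each of the 40 members (rows, ordered by role) in each of the 20 libraries (columns, 5 per group), as log2 CPM minus the mean of the gene over all libraries. Red is above and blue below that mean. The Rosa26 libraries at 6 months are blue in most rows, and among them replicate 4 is the darkest.

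Averaged over the 40 members, the centred log2 CPM was 0.11 ± 0.06 (SD, n = 5) in Rosa26 livers at 3 weeks and 0.05 ± 0.06 in HIRA livers at 3 weeks. At 6 months it was -0.15 ± 0.06 in Rosa26 and -0.01 ± 0.12 in HIRA livers. The 5 Rosa26 libraries lay between 0.046 and 0.191 at 3 weeks and between -0.255 and -0.090 at 6 months, without overlap. The HIRA libraries lay between -0.056 and 0.103 at 3 weeks and between -0.153 and 0.131 at 6 months, where 2 of 5 libraries, replicates 2 and 4, reached as low as the Rosa26 group. Together the members took 983 ± 28.1 CPM in Rosa26 and 963 ± 29.6 CPM in HIRA livers at 3 weeks, and 860 ± 29.0 and 922 ± 69.2 CPM at 6 months. The lowest of the 4 group means was that of Rosa26 at 6 months for 29 of the 40 members. This count was not taken over all genes.

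**Figure D2:**
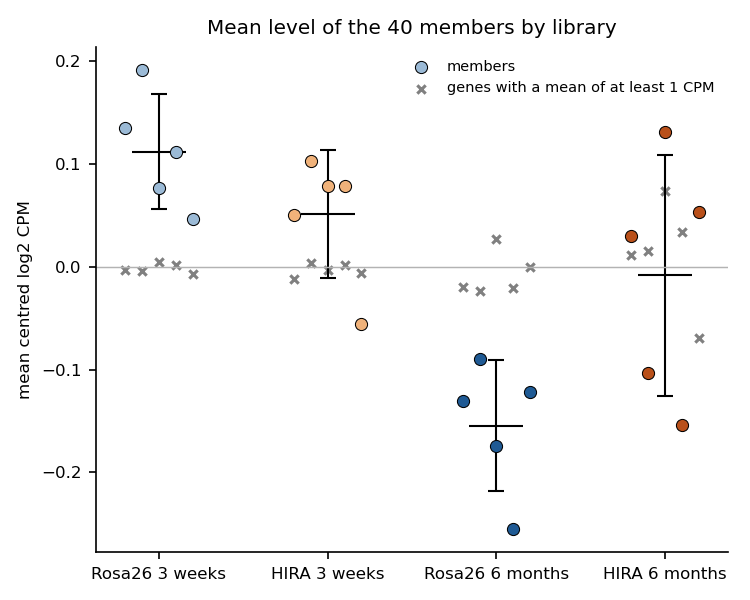
Mean centred log2 CPM of the 40 members (circles, y axis) in each library, by group (x axis), with the group mean and SD (bars), and the same mean over all genes with at least 1 CPM (crosses). The circles of Rosa26 at 6 months lie between -0.255 and -0.090, below all circles of Rosa26 at 3 weeks.

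The first comparison asked what changed between 3 weeks and 6 months in the control livers. Of the 40 members, 5 passed an edgeR adjusted p of 0.05, all lower at 6 months, where 0.324% of the 22867 genes tested passed in either direction. At an unadjusted p under 0.05, 24 members were lower and 1 was higher (Dkc1, 62.5% in all), against 12.8% of all genes tested and 16.5% of genes with a mean of at least 1 CPM. For 15 members all 5 libraries at 6 months were below all 5 at 3 weeks, and for none the reverse, against 3.5% of all genes in either direction. The log2 fold change was below 0 for 37 members and its median was -0.24, beside 0.003 over all genes tested and -0.01 over the 12903 genes with a mean of at least 1 CPM. None passed the fold threshold of the study, an absolute log2 fold change above 1.

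Ppan, a factor of the pre-60S particle (ENSMUSG00000004100.12, chromosome 9, 20888175 to 20892178, plus strand), showed the change with the smallest adjusted p. In Rosa26 livers it had 20.2, 19.5, 17.1, 19.4 and 13.4 CPM in replicates 1 to 5 at 3 weeks and 11.9, 12.7, 11.2, 10.8 and 12.6 CPM at 6 months. In HIRA livers it had 16.7, 20.2, 18.3, 16.9 and 15.6 CPM at 3 weeks and 17.2, 15.7, 19.2, 16.0 and 17.1 CPM at 6 months. Only the Rosa26 group at 6 months stood apart, with all 5 libraries below the other 15. The means were 17.9 ± 2.80 and 11.8 ± 0.84 CPM (SD, n = 5) in Rosa26 livers, and the fitted log2 difference was -0.60 with an SE of 0.10 (edgeR adjusted p 0.0195).

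Nop56, a core protein of the box C/D snoRNPs that guide 2'-O-methylation (ENSMUSG00000027405.16, chromosome 2, 130274430 to 130279313, plus strand), had 25.3, 20.7, 24.3, 22.9 and 21.6 CPM in Rosa26 livers at 3 weeks and 13.4, 19.3, 15.1, 14.9 and 15.8 CPM at 6 months. The HIRA livers had 21.2, 22.9, 22.7, 22.4 and 19.4 CPM at 3 weeks and 16.7, 17.3, 20.5, 17.4 and 22.1 CPM at 6 months. The Rosa26 groups did not overlap, while the HIRA groups did. In Rosa26 livers Nop56 fell by 0.55 ± 0.10 log2 units (SE) with an edgeR adjusted p of 0.0227. Its exons share 5 bases with those of Idh3b on the other strand.

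Nolc1, a nucleolar chaperone of snoRNPs (ENSMUSG00000015176.11, chromosome 19, 46075863 to 46085530, plus strand), had 24.1, 25.2, 18.9, 21.7 and 18.7 CPM in Rosa26 livers at 3 weeks and 14.9, 14.7, 14.2, 11.0 and 16.0 CPM at 6 months. It had 16.4, 24.1, 22.0, 21.8 and 15.8 CPM in HIRA livers at 3 weeks and 18.5, 18.8, 20.1, 17.7 and 21.6 CPM at 6 months. All Rosa26 libraries at 6 months were below those of the same arm at 3 weeks, and all HIRA libraries at 6 months lay above them. In Rosa26 livers Nolc1 fell by 0.62 ± 0.12 log2 units (SE) with an edgeR adjusted p of 0.033.

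Nop2, a methyltransferase of 28S rRNA (ENSMUSG00000038279.10, chromosome 6, 125131909 to 125144753, plus strand), had 22.7, 19.6, 17.0, 19.1 and 17.8 CPM in Rosa26 livers at 3 weeks and 13.9, 14.3, 13.6, 13.7 and 14.5 CPM at 6 months. It had 18.7, 17.5, 17.4, 19.2 and 15.1 CPM in HIRA livers at 3 weeks and 16.5, 15.3, 19.3, 13.8 and 18.3 CPM at 6 months. The control groups were separate. At 6 months the HIRA libraries ran from 13.8 to 19.3 CPM and the Rosa26 libraries from 13.6 to 14.5 CPM. In Rosa26 livers Nop2 changed by -0.46 ± 0.10 log2 units (SE) with an edgeR adjusted p of 0.0416.

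Nol10, a protein of the small subunit processome (ENSMUSG00000061458.9, chromosome 12, 17348458 to 17430095, plus strand), had 6.03, 6.79, 6.89, 6.04 and 7.07 CPM in Rosa26 livers at 3 weeks and 4.40, 4.71, 4.52, 3.20 and 4.82 CPM at 6 months. In HIRA livers it had 5.81, 5.01, 5.03, 5.04 and 4.72 CPM at 3 weeks and 5.71, 5.97, 6.80, 4.50 and 6.25 CPM at 6 months. Here the HIRA livers at 3 weeks were already below all 5 controls. Between the Rosa26 groups the log2 fold change was -0.60 ± 0.13 (SE, edgeR adjusted p 0.0433), and Nol10 was past the threshold in 12 of 31 alternative analyses, fewer than the other 4. Over the 31 the value ran from -0.64 to -0.37.

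**Figure D3:**
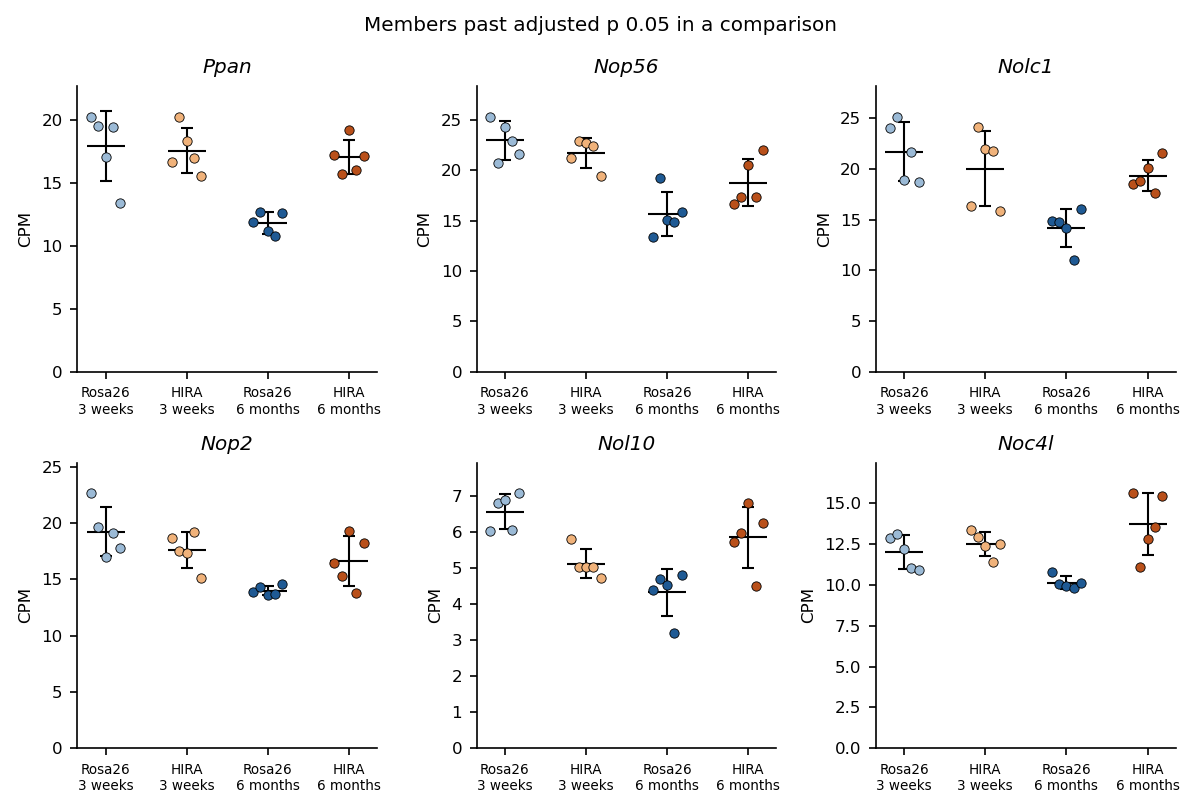
CPM (y axis, from 0) of the 6 members past an adjusted p of 0.05 in a comparison, in each library (points) by group (x axis), with the mean and SD of 5 libraries (bars). In Ppan, Nop56, Nolc1, Nop2 and Nol10 the Rosa26 points at 6 months lie below all Rosa26 points at 3 weeks, and in Ppan, Nolc1 and Noc4l they also lie below all HIRA points at 6 months.

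By role, the 3 box C/D proteins had a median log2 fold change of -0.52 in Rosa26 livers, the 14 small subunit factors -0.32, the 4 organisers and helicases -0.26, the 11 large subunit factors -0.25, the 5 genes of RNA polymerase I transcription -0.19 and the 3 box H/ACA proteins -0.04. These medians stand for few genes and were not compared by a test. Rrp12, a factor of pre-40S processing and export, had the largest change of all members, -0.72 ± 0.16 (SE), with 6.27 to 8.05 CPM at 3 weeks and 3.64 to 5.08 CPM at 6 months, and did not pass (edgeR adjusted p 0.0538). Utp4 (-0.45, edgeR adjusted p 0.0538) and Nop58 (-0.52, edgeR adjusted p 0.0521), a UTP-A protein of the processome and a partner of Nop56, were as close to the threshold. Fbl, the methyltransferase that works with Nop56 and Nop58, was at -0.05 (edgeR adjusted p 0.865). Only Dkc1 (0.22), Mybbp1a (0.10) and Rrp9 (0.03) were above 0, and none of these 3 passed.

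The number of members called in this comparison depended on single libraries, while the sign of the median did not. It was 0 without replicate 1 or 4 of Rosa26 at 3 weeks or without replicate 3 or 4 of Rosa26 at 6 months, and 1 without replicate 3 of Rosa26 at 3 weeks. It was 2 without replicate 2 of Rosa26 at 3 weeks or replicate 1 of Rosa26 at 6 months, and 3 without replicate 5 of Rosa26 at 6 months or replicate 2 or 3 of HIRA at 3 weeks. It was 8 without replicate 1, 3 or 5 of HIRA at 6 months, which belong to neither group compared. Over 31 alternatives the number of all genes called in this comparison ran from 1 to 506. The share of all genes is not given for each library left out. The median log2 fold change stayed between -0.27 and -0.19 over 31 alternatives, and 35 of the 37 members below 0 were below 0 in all of them. DESeq2, the tool of the study, called 10 members, all lower, namely the 5 above with Nop58, Rrp12, Utp4, Wdr75 and Wdr43. It also called more of all genes, 3.22% of those it gave an adjusted p.

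The promoters of the 6 members past the threshold in a comparison are shown because 5 of them were lower together in the same livers. They are the RefSeq windows from 250 bases before to 50 after the start of the gene (GRCm38.p6), 5' to 3' on the strand of the gene. They lie at chr9:20887925-20888224 (Ppan, plus), chr2:130274162-130274461 (Nop56, plus), chr19:46075597-46075896 (Nolc1, plus), chr6:125131633-125131932 (Nop2, plus), chr12:17348243-17348542 (Nol10, plus) and chr5:110653333-110653632 (Noc4l, minus). Capitals mark the E-box CACGTG and the ETS motif CCGGAAG, or CTTCCGG where it is on the other strand.
Ppan: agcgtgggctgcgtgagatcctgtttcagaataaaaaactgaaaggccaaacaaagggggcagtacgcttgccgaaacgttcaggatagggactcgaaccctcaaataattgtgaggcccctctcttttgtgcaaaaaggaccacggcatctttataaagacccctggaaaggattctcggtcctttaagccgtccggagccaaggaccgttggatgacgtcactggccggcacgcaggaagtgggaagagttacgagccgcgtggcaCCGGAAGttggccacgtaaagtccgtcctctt
Nop56: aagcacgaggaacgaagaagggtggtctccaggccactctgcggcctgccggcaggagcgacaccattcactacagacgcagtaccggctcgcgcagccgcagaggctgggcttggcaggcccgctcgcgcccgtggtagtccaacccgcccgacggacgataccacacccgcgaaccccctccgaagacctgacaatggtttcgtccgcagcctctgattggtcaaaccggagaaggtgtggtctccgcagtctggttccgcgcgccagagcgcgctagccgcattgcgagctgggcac
Nolc1: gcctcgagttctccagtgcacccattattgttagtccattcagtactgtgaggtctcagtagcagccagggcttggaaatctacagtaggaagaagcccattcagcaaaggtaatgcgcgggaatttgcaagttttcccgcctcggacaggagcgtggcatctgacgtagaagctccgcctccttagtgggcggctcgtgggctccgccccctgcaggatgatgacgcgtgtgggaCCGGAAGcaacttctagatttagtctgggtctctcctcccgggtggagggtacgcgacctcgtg
Nop2: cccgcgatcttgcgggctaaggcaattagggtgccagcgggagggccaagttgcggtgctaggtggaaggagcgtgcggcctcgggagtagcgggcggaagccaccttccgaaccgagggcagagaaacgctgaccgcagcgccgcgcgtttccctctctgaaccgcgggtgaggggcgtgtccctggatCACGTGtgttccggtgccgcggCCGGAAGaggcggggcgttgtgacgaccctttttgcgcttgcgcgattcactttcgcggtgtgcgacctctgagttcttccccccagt
Nol10: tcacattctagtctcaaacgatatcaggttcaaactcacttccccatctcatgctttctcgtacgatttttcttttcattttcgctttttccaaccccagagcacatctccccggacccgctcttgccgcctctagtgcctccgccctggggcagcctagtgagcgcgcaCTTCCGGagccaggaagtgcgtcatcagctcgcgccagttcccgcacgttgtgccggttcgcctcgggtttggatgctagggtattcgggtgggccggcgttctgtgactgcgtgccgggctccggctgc
Noc4l: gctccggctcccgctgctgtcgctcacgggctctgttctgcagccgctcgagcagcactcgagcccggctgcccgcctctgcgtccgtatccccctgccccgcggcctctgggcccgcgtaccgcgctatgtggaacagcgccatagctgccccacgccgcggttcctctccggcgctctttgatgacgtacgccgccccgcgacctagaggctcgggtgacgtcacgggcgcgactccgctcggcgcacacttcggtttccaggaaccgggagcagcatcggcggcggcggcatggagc
Nop2 holds both motifs, with the E-box at -60 and the ETS motif at -38 from the start. Ppan, Nolc1 and Nol10 hold the ETS motif alone, at 18, -14 and -80, and in Nol10 on the other strand. Neither string is in the windows of Nop56 and Noc4l.

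Windows were found for 35 of the 40 members (38 windows). Searching both strands, CACGTG, which reads the same on both and is bound by MYC and other factors, was in 9 of the 38 (23.7%), against 7.15% of all 32851 windows in the table. CCGGAAG was in 16 (42.1%, against 8.86%) and TCTCGCG in 6 (15.8%, against 2.56%). GCATGCG, part of the NRF1 site, was in 2 (5.26%, against 3.58%), TATAAA in 3 (7.89%, against 13.6%) and CCAAT in 9 (23.7%, against 37.4%). None of these strings contains another. All members had a mean of at least 1 CPM, so they were also set beside the genes at that level, counted per gene. The E-box was in 25.7% of the members and 11.8% of those genes, the ETS motif in 42.9% and 19.7%, TCTCGCG in 17.1% and 5.81% and CCAAT in 25.7% and 42.8%. For GCATGCG the direction turned, with 5.71% of the members and 7.09% of those genes, and for TATAAA the shares were close, at 8.57% and 9.35%. The 9 members with an E-box, Ltv1, Mybbp1a, Nop2, Pes1, Rrn3, Tsr1, Utp20, Utp4 and Wdr43, had a median log2 fold change of -0.36 between the times in Rosa26 livers, and the 26 without had -0.23. Over genes with at least 1 CPM the 2 medians were -0.003 and -0.02. Between the guides at 6 months the members with and without an E-box had medians of 0.12 and 0.13, and at 3 weeks of -0.08 and -0.06. Between the times in HIRA livers the medians were -0.08 and -0.06, and for the interaction 0.17 and 0.22. These are matches of letters and were not tested against the expression values.

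In HIRA livers, the comparison of 6 months with 3 weeks gave 0 members past an edgeR adjusted p of 0.05, where 0.0656% of all genes passed. DESeq2 and limma-voom also called 0 members, beside 0.885% and 0.0306% of all genes given an adjusted p. At an unadjusted p under 0.05 there were 2, both lower, against 8.95% of all genes tested and 9.95% of genes with a mean of at least 1 CPM. No member was without overlap between the 2 times (1.47% of all genes). The log2 fold change was below 0 for 29 members, with a median of -0.07, beside 0.03 for all genes tested. Without HIRA 6 months replicate 5, 0 members passed and the median was -0.08. The median was -0.11 without replicate 5 of HIRA at 3 weeks and -0.02 without replicate 4 of HIRA at 6 months.

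The 4 members with the smallest unadjusted p in HIRA livers did not pass. Polr1c, a subunit shared by RNA polymerases I and III, had 14.7 to 21.2 CPM at 3 weeks and 11.1 to 19.2 CPM at 6 months (log2 fold change -0.26 ± 0.11, edgeR adjusted p 0.531, and -0.17 without HIRA 6 months replicate 5). Nop56 was at -0.21 (edgeR adjusted p 0.544), Nob1, the endonuclease that makes the 3' end of 18S rRNA, at -0.20 (0.598) and Rrn3, which recruits RNA polymerase I to its promoter, at -0.19 (0.635). In all 4 the libraries of the 2 times overlapped. For the members that fell in Rosa26 livers, the change in HIRA livers was -0.04 ± 0.10 (SE) for Ppan, -0.05 ± 0.12 for Nolc1, -0.08 ± 0.10 for Nop2 and 0.19 ± 0.13 for Nol10.

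**Figure D4:**
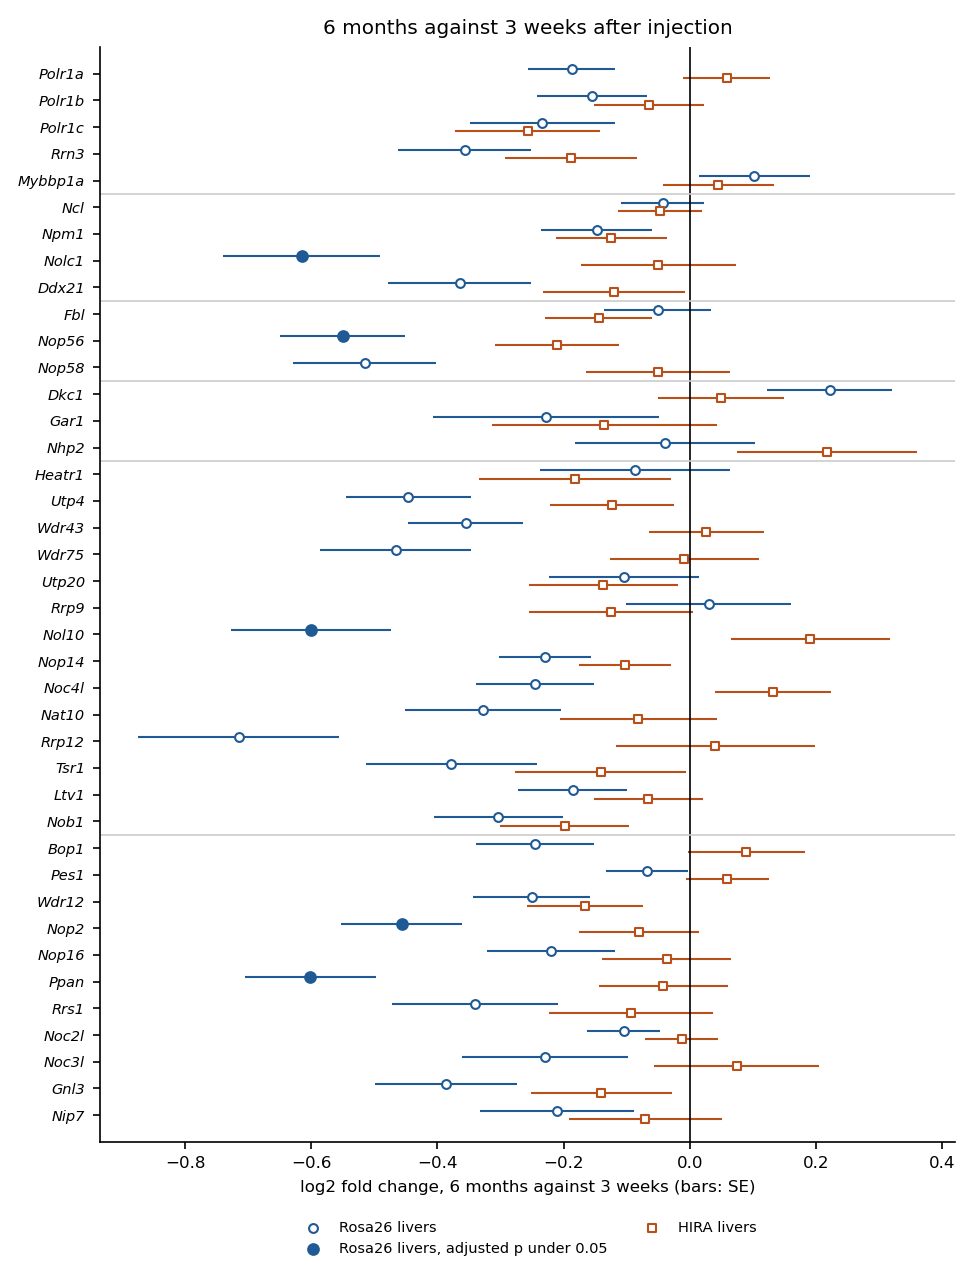
Log2 fold change between 6 months and 3 weeks (x axis, bars are SE) of each member in Rosa26 livers (blue circles) and HIRA livers (orange squares), with filled symbols where the edgeR adjusted p was under 0.05. In Rosa26 livers 37 of 40 values are below 0 and 5 are filled, and in HIRA livers 29 are below 0 and none is filled.

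At 6 months the HIRA livers were compared with the Rosa26 livers of the same time, which are the same control libraries as in the first comparison. Of the 40 members 2 passed an edgeR adjusted p of 0.05, both higher in HIRA livers (1.31% of all genes tested passed in either direction). At an unadjusted p under 0.05, 13 were higher and 1 was lower (35.0% in all), against 15.5% of all genes and 21.1% of genes with a mean of at least 1 CPM. The groups did not overlap for 6 higher members (Ppan, Noc4l, Nolc1, Wdr43, Rrs1 and Gnl3) and 2 lower ones (Heatr1 and Dkc1), against 3.15% of all genes. The log2 fold change was above 0 for 32 members and its median was 0.13, beside 0.03 over all genes tested.

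Ppan, with the CPM values given above, was at 11.8 ± 0.84 CPM in Rosa26 and 17.0 ± 1.36 CPM in HIRA livers (SD, n = 5). Its log2 fold change was 0.53 ± 0.10 (SE, edgeR adjusted p 0.0175), and it passed in 29 of 31 alternatives. Noc4l, the partner of NOP14 in the small subunit processome (ENSMUSG00000033294.11, chromosome 5, 110648418 to 110653417, minus strand), had 10.8, 10.0, 9.94, 9.78 and 10.1 CPM in Rosa26 livers and 15.6, 11.1, 12.8, 13.5 and 15.5 CPM in HIRA livers at 6 months. At 3 weeks it had 12.9, 13.1, 12.2, 11.0 and 10.9 CPM in Rosa26 and 13.3, 12.9, 12.4, 11.4 and 12.5 CPM in HIRA livers. All 5 HIRA libraries at 6 months were above the controls of that time, while the arms overlapped at 3 weeks. The log2 fold change of Noc4l at 6 months was 0.44 ± 0.09 (SE, edgeR adjusted p 0.0263), and 25 of 31 alternatives kept it past the threshold. Over the 31 the value ran from 0.25 to 0.50.

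Other members were close to the threshold without passing it. Gnl3 (nucleostemin, a nucleolar GTPase) was at 0.42 ± 0.11 (SE, edgeR adjusted p 0.0648), Rrs1, which brings the 5S particle to the pre-60S subunit, at 0.48 ± 0.13 (0.0732) and Nolc1 at 0.45 ± 0.12 (0.0774). Heatr1, a processome protein also needed for rDNA transcription, went the other way, with 13.8 to 17.7 CPM in Rosa26 and 9.31 to 13.6 CPM in HIRA livers (-0.41 ± 0.15, edgeR adjusted p 0.183). Its exons overlap those of Lgals8 on the other strand by 155 bases, and Lgals8, with 690.4% of the counts of Heatr1, was at -0.30 in the same comparison. The part of this overlap in the result was not tested. Dkc1 (dyskerin, the pseudouridine synthase of box H/ACA snoRNPs) had 12.7 to 14.0 CPM in Rosa26 and 11.6 to 12.1 CPM in HIRA livers, a difference of -0.15 (edgeR adjusted p 0.489).

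The count of 2 fell to 1 without replicate 3 of Rosa26 or replicate 1 of HIRA and to 0 without replicate 4 of Rosa26, and it was 5 without replicate 4 of HIRA, all at 6 months. Without HIRA 6 months replicate 5, whose sex-linked counts went against its label, the same 2 members passed, with log2 fold changes of 0.53 for Ppan (edgeR adjusted p 0.0204) and 0.39 for Noc4l (0.0382), and the median was 0.15. A fit on the 10 libraries of 6 months alone called 0, and DESeq2 on all libraries called 7, all higher (Ppan, Noc4l, Gnl3, Rrs1, Nolc1, Wdr75 and Nol10). Of all genes given an adjusted p, DESeq2 called 6.22% there. Over the 31 alternatives the number of all genes called in this comparison ran from 0 to 895. It is not given for the fit on 10 libraries, so its count of 0 members cannot be set beside all genes. Of the 32 members above 0, 25 were above 0 in all 31 alternatives.

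At 3 weeks the guides were compared to see an early response. No member passed an edgeR adjusted p of 0.05 (0.197% of all genes tested did), and DESeq2 and limma-voom also called 0, beside 1.56% and 0.101% of all genes given an adjusted p. At an unadjusted p under 0.05 there were 4 (10.0%), all lower in HIRA livers, against 8.87% of all genes and 11.5% of genes with a mean of at least 1 CPM, a share near that of the members. The groups did not overlap for 2 members, Polr1a and Nol10, against 2.69% of all genes. The log2 fold change was below 0 for 28 members with a median of -0.05, beside -0.006 for all genes tested. The median was -0.10 without replicate 5 of Rosa26 and -0.08 without replicate 3 of HIRA at 3 weeks, and -0.02 with library totals alone.

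The 4 with the smallest unadjusted p were lower in HIRA livers at 3 weeks and did not pass. Nol10 was at -0.36 ± 0.13 (SE, edgeR adjusted p 0.344). Polr1a, the largest subunit of RNA polymerase I, had 21.5 to 23.6 CPM in Rosa26 and 19.6 to 21.5 CPM in HIRA livers (-0.18 ± 0.07, edgeR adjusted p 0.41). Heatr1 was at -0.32 ± 0.15 (edgeR adjusted p 0.559), and at -0.16 (0.938) without replicate 2 of Rosa26 at 3 weeks. Nop58 was at -0.24 ± 0.11 (edgeR adjusted p 0.562). Ppan, by contrast, was at -0.03 ± 0.10 and Noc4l at 0.06 ± 0.09 at this time.

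**Figure D5:**
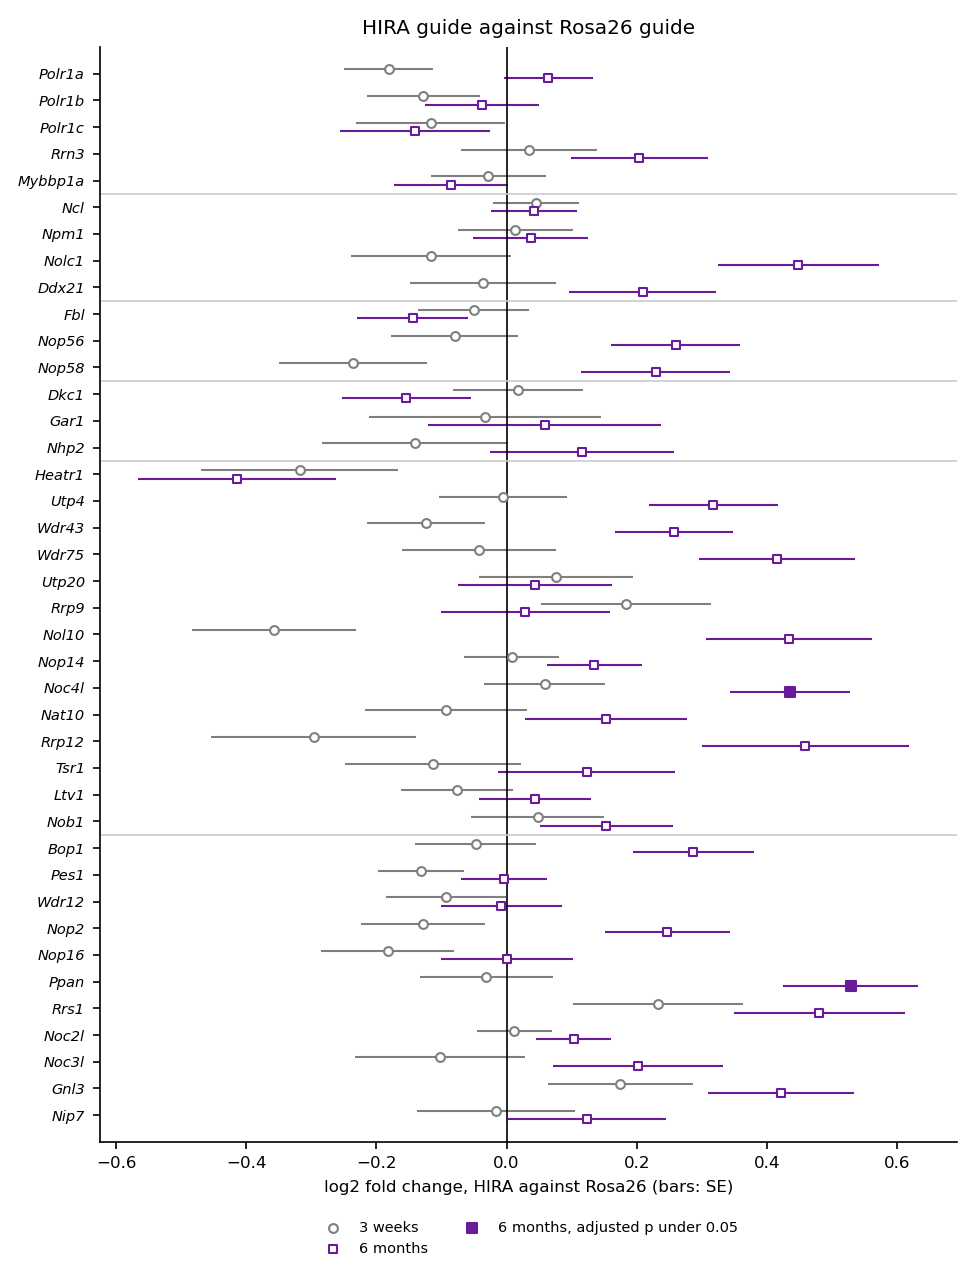
Log2 fold change of HIRA against Rosa26 livers (x axis, bars are SE) for each member at 3 weeks (grey circles) and 6 months (purple squares), with filled symbols where the edgeR adjusted p was under 0.05. At 3 weeks 28 of 40 values are below 0 and none is filled, and at 6 months 32 are above 0 and Ppan and Noc4l are filled.

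The change of the guide effect between the times was tested as an interaction, since a call at one time and none at the other does not show a difference. No member passed, and no gene of the whole table did (0.0% of genes tested). DESeq2 and limma-voom called 0 members and 0 of all genes given an adjusted p (0.0%). At an unadjusted p under 0.05 there were 13 members, all with a guide effect that was higher at 6 months than at 3 weeks, against 6.62% of all genes tested and 7.46% of genes with a mean of at least 1 CPM in either direction. The median difference was 0.21, beside 0.03 for all genes tested, and 32 members were above 0. Without HIRA 6 months replicate 5 the median difference was 0.18 and 0 members passed, and without replicate 3 of HIRA at 6 months it was 0.13. The 4 smallest p belonged to Nol10 (0.79 ± 0.18, SE), Ppan (0.56 ± 0.15), Rrp12 (0.76 ± 0.22) and Nolc1 (0.57 ± 0.17), of which Nol10, Ppan and Rrp12 had an edgeR adjusted p of 0.614 and Nolc1 of 0.634. This contrast uses the libraries of all 4 groups, so it is not separate evidence from the comparisons above.

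A wider list of 134 other ribosome biogenesis genes, of which 133 were tested, was read in the same way. In Rosa26 livers 1 fell and 0 rose between the times (0.752%, against 0.324% of all genes and 0.527% of genes with a mean of at least 1 CPM). There, 114 were below 0 and the median was -0.14. At an edgeR unadjusted p under 0.05, 38 were lower and 1 was higher (29.3% in all). This compares with 12.8% of all genes and 16.5% of genes with a mean of at least 1 CPM. In HIRA livers none passed and the median was -0.02. At 6 months 1 was higher in HIRA livers, and this 0.752% was below the 1.31% of all genes tested and the 2.17% of genes with a mean of at least 1 CPM. The share at an edgeR unadjusted p under 0.05 was 19.5% there, against 15.5% and 21.1% of the same 2 sets. The median of the list at 6 months was 0.08, and 0.05 without HIRA 6 months replicate 5, while at 3 weeks none passed and the median was -0.04. The gene past the threshold was Mphosph10 both times, which encodes a U3 snoRNP protein of the processome. It had 6.61 to 10.4 CPM in Rosa26 livers at 3 weeks and 3.57 to 6.85 at 6 months, and 7.63 to 10.5 CPM in HIRA livers at 6 months. Its log2 fold change was -0.82 ± 0.15 (SE, edgeR adjusted p 0.0227) between the times in Rosa26 livers and 0.80 ± 0.15 (SE, edgeR adjusted p 0.0149) between the guides at 6 months, where it was 0.74 (0.0204) without HIRA 6 months replicate 5.

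Known regulators did not pass. Of 16 genes of the MYC network and of mTOR signalling, 0 passed an edgeR adjusted p of 0.05 in any of the 5 contrasts, and at an unadjusted p under 0.05 there were 2 higher and 2 lower between the times in Rosa26 livers and 3 higher between the guides at 6 months. At 3 weeks 1 was higher and 1 lower, in HIRA livers between the times 0, and for the interaction 1. Myc had a median of 3.14 CPM in Rosa26 and 3.39 in HIRA livers at 3 weeks and of 3.01 and 4.28 CPM at 6 months. Its log2 fold change was 0.17 (edgeR adjusted p 0.89) between the times in Rosa26 livers and 0.26 (0.773) between the guides at 6 months. Max, the partner of MYC, was at -0.15 (edgeR adjusted p 0.533) and 0.22 (0.262), and the kinase gene Mtor at -0.24 (0.293) and 0.25 (0.21) in the same 2 comparisons. Mycn, a relative of Myc at 0.233 to 1.80 CPM in Rosa26 livers at 3 weeks and 0.184 to 0.466 at 6 months, had the largest log2 fold changes of the 16, with -1.72 between the times in Rosa26 livers (edgeR unadjusted p 0.00936, adjusted 0.208), -1.72 between the guides at 3 weeks (0.00954, adjusted 0.339) and 2.22 for the interaction (0.0199, adjusted 0.690). Mnt, which encodes a repressor that pairs with MAX, was at 0.49 between the times in Rosa26 livers (edgeR unadjusted p 0.00811, adjusted 0.198) and 0.39 between the guides at 3 weeks (0.0305, adjusted 0.496). Without HIRA 6 months replicate 5, at 6 months Myc was at 0.48 (edgeR adjusted p 0.411), Max at 0.19 (0.336), Mtor at 0.21 (0.277) and the median of the 16 went from 0.12 to 0.07.

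Some other lists moved between the groups that differ here. Of 8 genes of the evening phase of the circadian clock, 4 were higher at 6 months than at 3 weeks in Rosa26 livers and 5 were higher in HIRA than in Rosa26 livers at 3 weeks (edgeR adjusted p under 0.05). Their summed level was 129 to 239 CPM in Rosa26 and 258 to 682 CPM in HIRA livers at 3 weeks, and 317 to 537 and 170 to 670 CPM at 6 months. Of 4 genes of the morning phase none passed, with 138 to 161 CPM in Rosa26 livers at 3 weeks against 44.1 to 118 in HIRA livers, and 44.3 to 116 and 41.9 to 130 CPM at 6 months. Of 8 p53 targets, 3 were lower at 6 months than at 3 weeks in Rosa26 livers and 1 in HIRA livers, and their sums were 142 to 256 and 128 to 246 CPM at 3 weeks and 86.0 to 103 and 88.8 to 128 CPM at 6 months in the 2 arms. The part of these genes in the results was not tested.

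No marker of a liver cell type passed an edgeR adjusted p of 0.05 in any comparison, and the lists lay on both sides of 0. The 6 hepatocyte markers summed to 106141 to 163825 CPM in Rosa26 livers at 3 weeks and 96358 to 131288 at 6 months, and to 113448 to 152703 CPM in HIRA livers at 6 months. All 6 had a log2 fold change below 0 between the times in Rosa26 livers, with a median of -0.28 and 2 at an unadjusted p under 0.05. Between the guides at 6 months 5 of the 6 were above 0, with a median of 0.10 and 1 at an unadjusted p under 0.05. The 3 sinusoidal endothelial markers were at 107 to 138 CPM in Rosa26 livers at 3 weeks, 70.5 to 106 at 6 months and 76.7 to 121 in HIRA livers at 6 months, so the 2 times did not overlap in Rosa26 livers. All 3 were below 0 there, with a median log2 fold change of -0.47 and 2 at an unadjusted p under 0.05 (Stab2 and Clec4g, edgeR adjusted p = 0.127 and 0.132). Between the guides at 6 months all 3 were above 0, with a median of 0.28 and 1 at an unadjusted p under 0.05 (Stab2). The 4 cholangiocyte markers were at 58.3 to 120 and 46.0 to 151 CPM in the Rosa26 and HIRA livers at 6 months, the 5 stellate markers at 158 to 284 and 182 to 641 CPM, and the 4 Kupffer markers at 180 to 1312 and 109 to 760 CPM. All 5 stellate markers were above 0 between the guides at 6 months, with a median of 0.51 and 2 at an unadjusted p under 0.05 (Dcn and Reln). All 4 Kupffer markers were below 0 there, with a median of -0.26 and none at an unadjusted p under 0.05. Between the times in Rosa26 livers the Kupffer list was above 0 in 4 of 4 markers (median 0.37) and the T cell list in 3 of 3 (0.74), none at an unadjusted p under 0.05, and the B cell marker Cd79a was at 0.79 (edgeR unadjusted p 0.0190). The 4 cholangiocyte markers were all below 0 there (-0.10), and of the 5 genes of cycling cells 4 were below 0 (-0.23). At 6 months, in Rosa26 and in HIRA livers, the 3 T cell markers were at 1.58 to 10.0 and 1.52 to 11.2 CPM, the B cell marker Cd79a at 2.08 to 6.79 and 2.49 to 8.02 CPM, and the 5 genes of cycling cells at 5.17 to 20.6 and 3.66 to 23.7 CPM. The summed levels of the 2 arms overlapped at 6 months for each of these lists.

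Between the guides at 3 weeks, 5 of the 6 hepatocyte markers were below 0 (median -0.21, 3 at an unadjusted p under 0.05), and Cd79a was at 0.85 (edgeR unadjusted p 0.0124, adjusted 0.380). Between the times in HIRA livers all 5 stellate markers were above 0 (median 0.35), with 1 at an unadjusted p under 0.05, the collagen gene Col1a1 at 1.15 (edgeR unadjusted p 0.0282, adjusted 0.502). Leaving out HIRA 6 months replicate 5 moved the lists between the guides at 6 months. The hepatocyte median went from 0.10 to -0.006, with 3 of 6 above 0, and the Kupffer median from -0.26 to -0.03, with 3 of 4 below 0. The stellate median went from 0.51 to 0.65, the endothelial from 0.28 to 0.42, the cholangiocyte from 0.18 to 0.33, the T cell from 0.30 to 0.53 and that of cycling cells from 0.24 to 0.41, and Cd79a from 0.48 to 0.65. No marker passed an edgeR adjusted p of 0.05 there. The part of cell composition in the results was not tested.

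The members also varied together within groups. After each group mean was subtracted, the median Pearson correlation over all pairs of members was 0.23 across the 20 libraries. Of the pairs, 75.1% were above 0. The median over all pairs of genes with a mean of at least 1 CPM was 0.003. Without HIRA 6 months replicate 5 the median over pairs of members was 0.22. Ddx21, a nucleolar RNA helicase, had the highest median correlation with the other members (0.48), followed by Ppan (0.40) and Nop2 (0.40). For Bop1, Rrp9, Dkc1, Mybbp1a, Noc2l and Nhp2 it was below 0. The points share library preparation and depth, and these values are a description.

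Several members share exon bases with another gene. This was so for 18 members. In Ncl, Nop58 and Ppan the partner with the most counts was on the same strand, with 0.0% of the member's counts. For 10 of the 18 the partner was on the other strand and had over 10% of the member's counts. These 10 were Mybbp1a, Nop56, Dkc1, Nhp2, Heatr1, Rrp9, Tsr1, Bop1, Wdr12 and Gnl3. The library kit keeps the strand, but whether counting used it is not given in the sources used here, and without strand the reads in the shared bases cannot be assigned. Between the times in Rosa26 livers, all 30 members without such a partner were below 0, with a median of -0.24. The 10 with one had a median of -0.17 and held the 3 members above 0. At 6 months the median of HIRA against Rosa26 was 0.15 for the 30 and 0.07 for the 10.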

How the data were processed

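Poly(A) RNA of 20 livers was made into libraries with a directional kit. Per the labels and the study's methods, reads were aligned to mm10 with STAR. The labels name HTSeq and Cufflinks and the methods name HOMER for counting. The authors deposited raw counts per gene, whole numbers without normalization, which were the main data, and FPKM values per gene, which were used as an alternative and for the order of levels. The study tested with DESeq2.

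Groups and replicate numbers were taken from the sample titles. Genes with at least 10 counts in total were kept (22867 of 55421), and 1 model with a mean per group was fitted to all 20 libraries with the quasi-likelihood test of edgeR 4.0.16, TMM normalization and Benjamini-Hochberg adjustment over all genes tested. Adjusted p-values are from this test unless another tool is named. CPM values are counts per 1000000 of the TMM-scaled library, and log2 CPM values use a prior count of 2. The p-values rest on the spread between mice within groups, pooled over all 20 libraries and moderated across genes. The script was tested on simulated data with 200 genes changed 4-fold. The edgeR test recovered 200 of them, with 5 false calls. All member changes here were smaller, and the recovery of such changes was not tested. Software was Python 3.11.15 with pandas 2.3.3, numpy 2.4.6 and matplotlib 3.10.9, and R 4.3.3 with DESeq2 1.42.0 and limma 3.58.1. Alternatives were other normalizations, filters, tools, the FPKM values with a pseudocount of 1 or 0.1, the replicate number as a block, the libraries of a contrast alone, and leaving out each library.

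No pair of replicates had counts that agreed within sampling noise. Coordinates of genes are GRCm38 from GENCODE M21, which matched 54587 identifiers (98.5%). Promoter sequences are from RefSeq.

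The 40 members, the other gene lists (other ribosome biogenesis genes, regulators, liver cell types, clock and p53 genes) and the motifs were chosen with earlier results of these data known. Values in full were given for up to 8 members per contrast past an adjusted p of 0.05, taken in order of their absolute log2 fold change, or else for the 4 with the smallest unadjusted p, for the 3 highest and 3 lowest levels per length and for the 3 with the widest spread. Other members were named beside these after their values were seen.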

Additional observations from a re-analysis of the deposited data

Results flagged for a closer look

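In 9 of 164 groups of 5 libraries (4 groups for each of the members and the summed score), 1 library was far from the other 4 by Dixon's criterion at the 95% level, and chance gives about 1 in 20. Polr1b was high in HIRA 3 weeks replicate 2 (4.52 log2 CPM) and in Rosa26 6 months replicate 2 (4.50). Rrn3 (4.21) and Rrs1 (4.39) were high in HIRA 6 months replicate 3. Dkc1 was high in Rosa26 6 months replicate 1 (3.82) and in HIRA 6 months replicate 5 (3.60), the library whose sex-linked counts went against its label. Gnl3 was high in HIRA 3 weeks replicate 1 (5.07). Utp4 was low in Rosa26 3 weeks replicate 4 (3.85), and Nol10 was low in Rosa26 6 months replicate 4 (1.72), 1 of the 4 libraries without which no member was called between the times in Rosa26 livers.

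For 4 members every HIRA library at 3 weeks was below and every HIRA library at 6 months above the mean of the Rosa26 livers of its time. The guide effect changed by 0.34 for Nop56 (from -0.08 to 0.26), 0.46 for Nop58 (from -0.24 to 0.23), 0.79 for Nol10 (from -0.36 to 0.43) and 0.76 for Rrp12 (from -0.30 to 0.46) on the log2 scale. The interaction test of edgeR did not pass for any of them, with adjusted p-values of 0.704, 0.685, 0.614 and 0.614.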

How the results depend on the processing

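None of the 5 medians over the members and no called member changed its direction under an alternative. Other medians were not recomputed, except those of the gene lists without HIRA 6 months replicate 5. Of the 40 members, 37 kept the sign of their log2 fold change in all alternatives between the times in Rosa26 livers, 28 between the guides at 6 months, 23 at 3 weeks, 27 between the times in HIRA livers and 33 for the interaction. Between the times in Rosa26 livers, the count of 5 members became 10 with DESeq2, 9 with a minimum of 1 CPM in 5 libraries, 2 with library totals alone, 2 with log2(FPKM + 1), 0 with log2(FPKM + 0.1), and 0 to 8 when 1 library was left out. At 6 months, the count of 2 became 7 with DESeq2, 5 with the 1 CPM minimum, 1 with log2(FPKM + 0.1), 0 with the libraries of the contrast alone, and 0 to 5 when 1 library was left out, and the median of 0.13 became 0.21 with log2(FPKM + 0.1). The cause was not tested. The counts of the other 3 contrasts were 0 in all alternatives run. Over the alternatives, 1 to 506 of all genes were called between the times in Rosa26 livers and 0 to 895 between the guides at 6 months. The numbers were 4 to 225 between the guides at 3 weeks, 5 to 143 between the times in HIRA livers and 0 to 1 for the interaction. The libraries of the contrast alone could not be used for the interaction, which needs all 4 groups.

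Equal replicate numbers did not pair the libraries (correlations of their deviations -0.309 to 0.335). With the replicate number as a block, 8 members were lower between the times in Rosa26 livers in place of 5, 2 were higher at 6 months, and 0 were called in the other contrasts. The share of all genes called with this block is not given here, so the 8 cannot be set beside it. Members had 69 to 4042 counts per library, so the smallest are measured less precisely by counting alone.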
